A study of Mus musculus with 8 samples.

Results

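The genes described here are 10 mouse genes whose proteins build or mark extracellular vesicles. They are the tetraspanins Cd9, Cd63, Cd81 and Cd82, the endosomal sorting genes Tsg101, Pdcd6ip and Sdcbp, and the Rab GTPase genes Rab27b, Rab11a and Rab7. They were chosen by gene symbol, and all 10 were found among the 31300 mouse genes of a table of 52016 genes, the other 20716 of which are canine. RNA from serum exosomes, which are small membrane vesicles shed into blood, had been sequenced from NCr nu/nu mice, an immunodeficient strain without a thymus. The labels name 4 groups of 2 libraries each. OSCA-40 and OSCA-32 are the libraries of mice 8 weeks after 100000 cells of the canine osteosarcoma line of that name were injected into the tibia in 10 µl. PBS libraries come from mice 8 weeks after 10 µl of phosphate-buffered saline into the tibia, and week 0 libraries come from pooled serum of all mice before any injection. Each graft is a single established cell line, and the age of the mice is not given in the sources used here. Serum was pooled, and no label ties the 2 libraries of a group to different animals. Each p-value therefore covers only the library-to-library spread, which can be technical.

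Exosomes form when the membrane of a late endosome buds inward and the endosome then fuses with the cell surface. Tetraspanins are multi-pass membrane proteins that gather integrins and other partners into patches of membrane and are abundant on vesicles. The ESCRT complexes (endosomal sorting complexes required for transport), with Alix (the product of Pdcd6ip) and syntenin (the product of Sdcbp), drive the inward budding. Rab GTPases then carry and dock the endosomes. The proteins are standard markers of exosomes, whereas the values below concern the RNA found in serum vesicles.

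The deposited values are whole numbers that sum to between 977106 and 989183 per library, so they are relative amounts that behave like TPM (transcripts scaled to a fixed library total) and keep no sequencing depth. They did not rise with transcript length. With protein-coding genes cut into 4 equal bins of transcript length, the median gene had a mean value over the PBS and week 0 libraries of 4.75 in the shortest bin and 4.0 in the longest. Levels are therefore compared between genes on the deposited scale as it stands. Canine genes took 68.4% and 70.7% of the OSCA-40 libraries and 44.7% and 43.3% of the OSCA-32 libraries, against 14.7% to 17.4% of the PBS and week 0 libraries. As deposited, the typical tested mouse gene stood below PBS by a log2 difference of -1.51 with OSCA-40 and of -0.55 with OSCA-32, and PBS differed from week 0 by 0.05. For tests the libraries were scaled on the bulk of the genes, so each fold change below is a log2 difference of scaled value plus 1, relative to that shift. A gene is called when its Benjamini-Hochberg adjusted p from limma, over 7872 genes tested, is under 0.05.

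Cd9, the tetraspanin that binds integrins and that platelets and vesicles carry in quantity, stood far above the other 9 members and fell with OSCA-40. The gene (ENSMUSG00000030342) lies at chr6:125460266-125494791 on the minus strand of GRCm38, the build of all coordinates below. Its deposited value was 29 and 26 in the OSCA-40 libraries, 106 and 117 in the OSCA-32 libraries, 208 and 192 in the PBS libraries and 198 and 234 in the week 0 libraries. Both OSCA-40 libraries lay below all 6 others, both OSCA-32 libraries lay below the PBS and week 0 libraries, and the values of PBS and week 0 overlapped. As deposited, most tested mouse genes fell in such a way. Both OSCA-40 libraries lay below both PBS libraries for 92.5% of them and below both OSCA-32 libraries for 76.9%. Both OSCA-32 libraries lay below both PBS libraries for 64.8%. Group means were 27.5 ± 2.12 with OSCA-40, 111.5 ± 7.78 with OSCA-32, 200.0 ± 11.3 in PBS and 216.0 ± 25.5 at week 0 (SD, n = 2 each). In every library Cd9 had the highest value of the 10, at 2.90 to 10.9 times the next member.

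After scaling, Cd9 had 85.1 and 79.6 with OSCA-40, 154 and 165 with OSCA-32, 200.0 and 182 in PBS and 198 and 230.0 at week 0. The order of the groups stayed as in the deposited values and the gaps between them narrowed. The log2 fold change of OSCA-40 against PBS was -1.20 ± 0.10 (SE, limma, adjusted p = 0.000755). Of the tested mouse genes, 6.65% had a lower fold change in that comparison, 2.36% were called lower and 2.95% higher. For OSCA-32 against PBS the log2 fold change was -0.26 ± 0.10, with a limma p of 0.0416 before adjustment and 0.453 after it, so Cd9 was not called there. In that comparison 0.549% of tested mouse genes were called in either direction, and 26.1% had a lower fold change than Cd9. The 2 comparisons share the PBS libraries.

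The difference between the cell lines was tested directly. OSCA-40 against OSCA-32 gave Cd9 a log2 fold change of -0.94 ± 0.10 (SE, limma, adjusted p = 0.00599), and 1.72% of tested mouse genes were called in either direction and 0.967% lower. That call was lost without the second OSCA-32 library (adjusted p = 0.0598, limma). It was also lost without the variance trend (0.0689) and with only the groups compared in the fit (0.0534). PBS against week 0 gave -0.16 ± 0.10 (limma, adjusted p = 1), a comparison in which 0.144% of tested mouse genes were called.

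The 4 tumour libraries were also set against the 4 tumour-free libraries. Cd9 averaged 69.5 ± 48.7 as deposited in the tumour libraries and 208.0 ± 18.5 in the tumour-free libraries (SD, n = 4 each). On the scaled log2 scale the mean was 6.85 ± 0.55 in tumour libraries and 7.66 ± 0.14 in tumour-free libraries, a difference of -0.81. The rank of Cd9 among tested mouse genes does not depend on the scaling of a library, and its percentile averaged 93.6 ± 2.39 in tumour libraries and 96.6 ± 0.338 in tumour-free libraries. The lowest and highest percentiles were 91.3 and 95.8 in the tumour libraries and 96.3 and 97.1 in the tumour-free libraries, without overlap. The share of tested mouse genes that separate 4 against 4 was not counted. On scaled values, both OSCA-40 libraries lay below both PBS libraries for 25.6% of tested mouse genes, and both OSCA-32 libraries did for 20.8%. On each of the 3 scales the exact two-sided permutation test gave p = 0.0286, the smallest that the 70 splits of 4 against 4 allow. The 3 scales restate the same 8 values and are not separate tests. Cd9 was set apart from the other members with earlier results of these data known. This p is therefore not independent of that choice and is given as a description. As deposited, the typical tested mouse gene also stood below PBS, by a log2 difference of -1.51 with OSCA-40 and -0.55 with OSCA-32. The test on the deposited scale includes that shift. The splits treat the 8 libraries as exchangeable, although they are 4 pairs from pooled serum, so this p takes no account of the pairs. The tumour libraries fall into separate pairs by cell line, which the SD of that group includes.

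**Figure D1:**
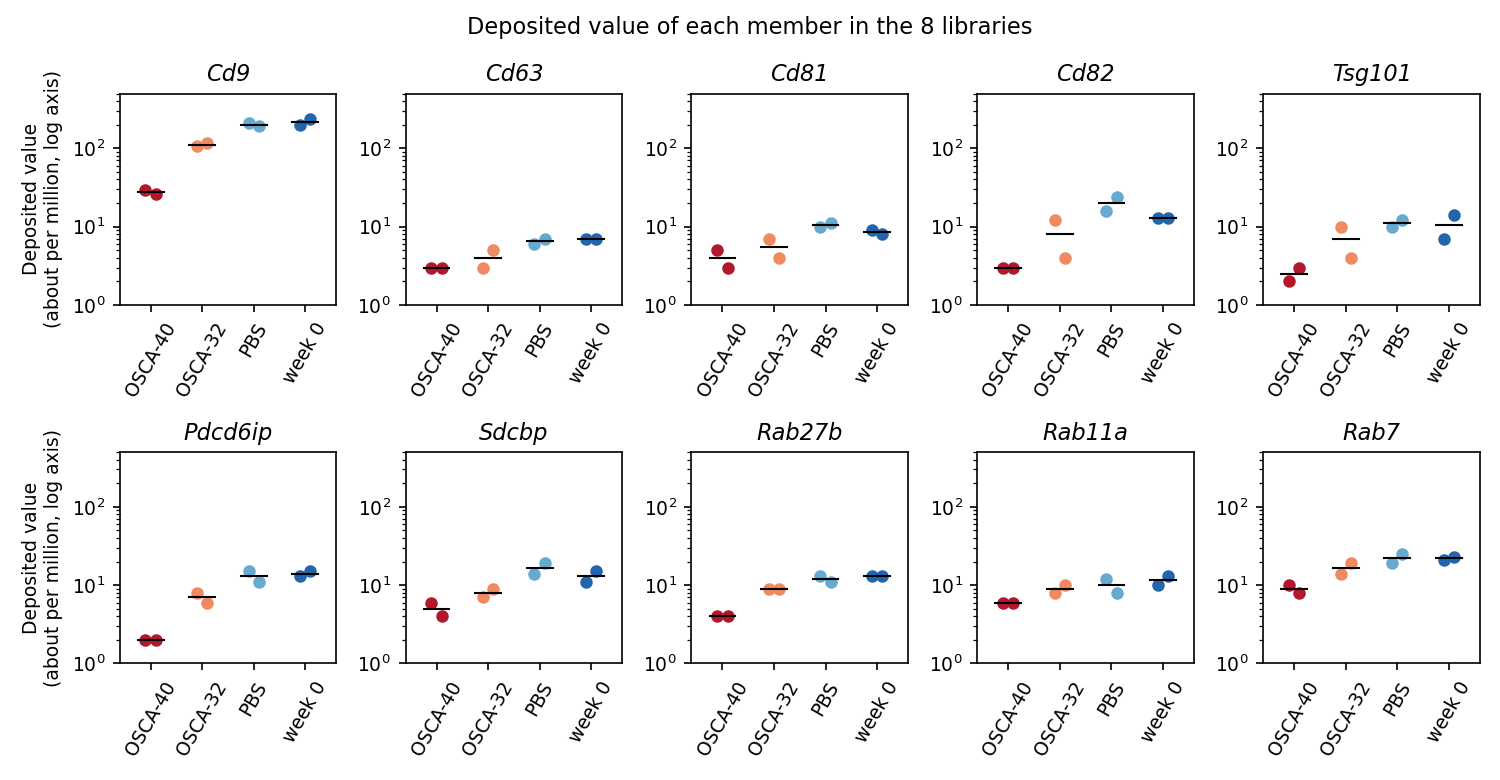
Deposited value (about per 1000000, log axis) of each of the 10 members in the 8 libraries, with OSCA-40, OSCA-32, PBS and week 0 side by side; points are libraries and bars are group means (n = 2). Cd9 runs between 26 and 234, while no other member exceeds 25 in any library.

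The sequence behind the Cd9 value was then examined, because a short read or 31-mer that several genes hold cannot be assigned to one of them by its letters alone. GENCODE mouse release 21 (GRCm38) lists 3 Cd9 transcripts. The coding transcript Cd9-201 has 1228 bases and the processed transcript Cd9-202 has 904 bases, and no 31-mer of either was held by more than 1 other mouse gene. The retained-intron transcript Cd9-203 has 786 bases, and 119 of its 31-mers were each held by at least 10 other genes, the most widely held by 718. These 119 are 5.92% of the 2011 distinct 31-mers of the gene. They lie between bases 90 and 281 of Cd9-203, at chr6:125462744-125462935 on the minus strand, where no exon of a protein-coding transcript is annotated. The table gives 1 value per gene, so how much of the Cd9 value came from which transcript was not tested. The stretch is shown with the comparable stretches of the pathway genes Snf8 and Vamp3, which are described further on and were called like Cd9, and of the member Cd63. Capitals mark bases that lie in a 31-mer held by at least 10 other mouse genes, and all are read 5′ to 3′ from GENCODE transcripts.
Cd9-203: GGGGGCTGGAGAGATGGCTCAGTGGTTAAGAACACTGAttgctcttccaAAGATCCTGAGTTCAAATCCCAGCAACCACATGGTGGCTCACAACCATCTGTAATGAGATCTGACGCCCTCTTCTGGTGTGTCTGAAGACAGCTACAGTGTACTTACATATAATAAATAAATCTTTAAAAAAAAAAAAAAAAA
Snf8-204: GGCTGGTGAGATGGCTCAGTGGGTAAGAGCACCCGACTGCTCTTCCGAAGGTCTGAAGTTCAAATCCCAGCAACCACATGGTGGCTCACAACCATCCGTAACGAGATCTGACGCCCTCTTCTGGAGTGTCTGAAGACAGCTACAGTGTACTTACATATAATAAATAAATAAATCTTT
Vamp3-203: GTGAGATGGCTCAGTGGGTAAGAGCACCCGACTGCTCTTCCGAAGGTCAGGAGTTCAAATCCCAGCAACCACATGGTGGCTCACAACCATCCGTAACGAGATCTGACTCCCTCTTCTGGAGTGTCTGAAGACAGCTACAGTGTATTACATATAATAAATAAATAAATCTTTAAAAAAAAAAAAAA
Cd63-205: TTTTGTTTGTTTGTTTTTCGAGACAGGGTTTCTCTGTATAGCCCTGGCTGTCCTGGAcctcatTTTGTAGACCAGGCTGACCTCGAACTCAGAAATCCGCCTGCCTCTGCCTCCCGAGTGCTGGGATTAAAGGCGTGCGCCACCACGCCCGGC
The Snf8-204 stretch lies at chr11:96039702-96039878 on the plus strand, the Vamp3-203 stretch at chr4:151050409-151050593 on the minus strand and the Cd63-205 stretch at chr10:128910954-128911106 on the plus strand. None of the 3 overlaps an exon of a protein-coding transcript. In the same orientation, the Snf8 stretch was identical to that of Cd9 at 92.4% of 170 aligned positions and the Vamp3 stretch at 90.2% of 184. The Cd63 stretch aligned with that of Cd9 over only 10 positions, so its recurring letters are different ones. The remaining called pathway gene, Exph5, has a stretch of recurring letters in Exph5-202, not shown, that aligned with that of Cd9 over only 13 positions.

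Such letters were common among the genes with high values. At least 1 such 31-mer was found in 41.2% of all 21474 mouse protein-coding genes listed. Among tested protein-coding genes the share was 92.7% at a mean scaled value of 50 or more, 82.6% between 20 and 50 and 51.4% below 20. At a mean scaled value of 50 or more, 8.33% of the 288 genes with at least 100 such 31-mers were called lower in OSCA-40 against PBS and 10.4% higher. Of the 538 genes with fewer, 9.11% were called lower and 17.8% higher. Counted on the strand of the Cd9 stretch only, 86 tested mouse genes hold 20 to 49 of its 162 31-mers. Their median log2 fold change in that comparison was -0.07, against -0.04 for the 7307 tested mouse genes that hold none. Calls were more frequent among the 86, of which 5.81% were called lower and 5.81% higher, beside 2.27% lower and 2.89% higher of the genes that hold none. At a mean scaled value of 50 or more, 4 of 25 such genes (16.0%) were called lower and 3 were called higher, beside 9.63% lower and 15.2% higher of the 903 that hold none. Snf8, which holds 24, is among those 4. Of the 49 genes at that level that hold 1 to 19, 10.2% were called lower and 12.2% higher. These shares are a description, and the 86 genes had a median scaled value of 25.3, against 14.1 for the genes that hold none.

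**Figure D2:**
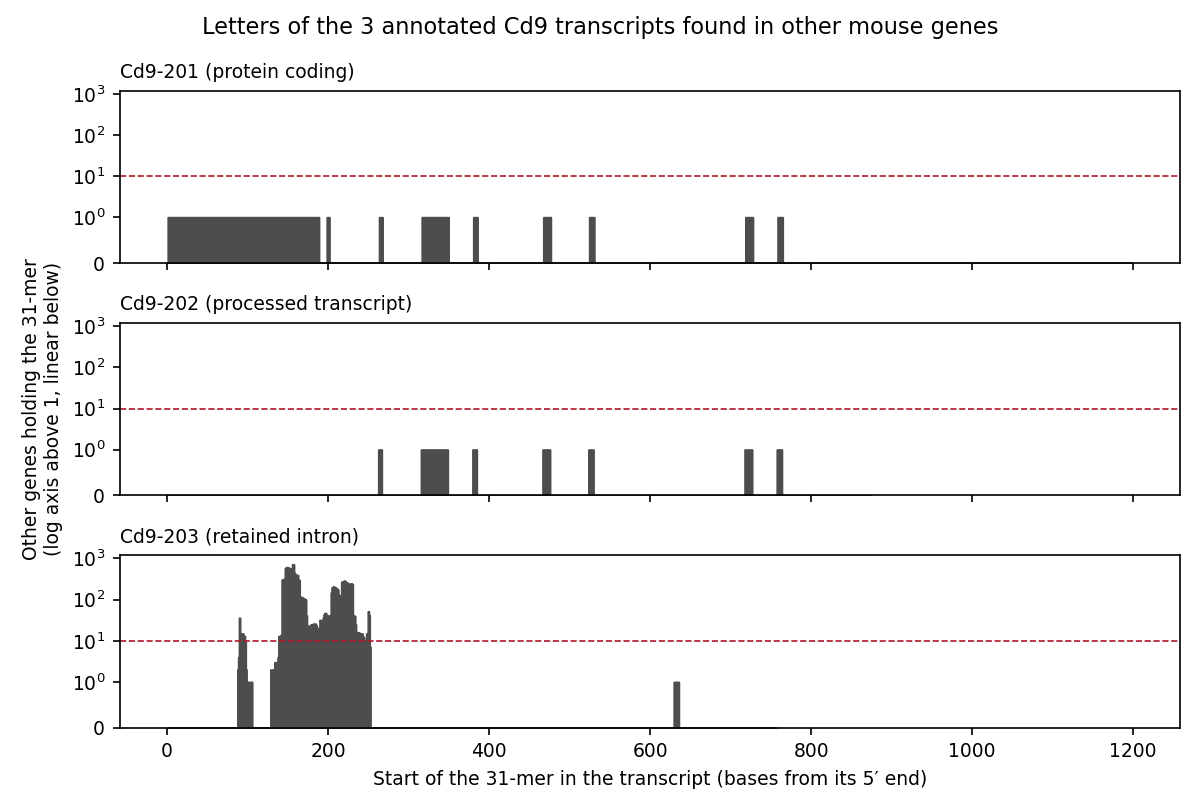
Number of other mouse genes that hold each 31-mer of the 3 annotated Cd9 transcripts, against the start of the 31-mer in bases from the transcript's 5′ end (vertical axis logarithmic above 1 and linear below; dashed line, 10 genes). Cd9-201 and Cd9-202 stay at 1 gene or fewer, and the block of Cd9-203 reaches 718.

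The other tetraspanins had low values, and none was called in any comparison. Cd63 (chr10:128900989-128912822, plus strand), a tetraspanin of late endosomes and the usual exosome marker, had 3 and 3 with OSCA-40, 3 and 5 with OSCA-32, 6 and 7 in PBS and 7 and 7 at week 0. It never reached 10, so it failed the filter of at least 10 in at least 2 libraries. With a minimum of 5 its log2 fold change was 0.44 ± 0.30 for OSCA-40 against PBS (SE, limma, adjusted p = 0.526), -0.12 for OSCA-32 against PBS and -0.16 for PBS against week 0. Cd81 (chr7:143052739-143067934, plus strand), which forms complexes with Cd9 and with B cell receptors, had 5 and 3 with OSCA-40, 7 and 4 with OSCA-32, 10 and 11 in PBS and 9 and 8 at week 0. It passed the filter only through the PBS libraries, and its log2 fold changes against PBS were 0.20 ± 0.38 with OSCA-40 and -0.36 ± 0.38 with OSCA-32. Both libraries of each tumour group lay below both PBS libraries as deposited. That held for 92.5% of tested mouse genes with OSCA-40 and for 64.8% with OSCA-32. After scaling the groups overlapped for Cd81. Cd82 (chr2:93419111-93463140, minus strand), known as a suppressor of metastasis, had 3 and 3 with OSCA-40, 12 and 4 with OSCA-32, 16 and 24 in PBS and 13 and 13 at week 0. As deposited, the OSCA-32 libraries lay far apart and the OSCA-40 libraries were the lowest of the 8. After scaling Cd82 had 8.80 and 9.19 with OSCA-40, 17.4 and 5.64 with OSCA-32 and 15.4 and 22.8 in PBS, so an OSCA-32 library was lowest and both OSCA-40 libraries stayed below both PBS libraries. Its log2 fold change was -0.98 ± 0.47 for OSCA-40 against PBS (SE, limma, adjusted p = 0.294), with a 95% interval from -2.09 to 0.13.

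Cd9 made up most of the summed tetraspanin value in every library. Its share of the sum of the 4 genes was 72.5% and 74.3% with OSCA-40, 82.8% and 90.0% with OSCA-32, 86.7% and 82.1% in PBS and 87.2% and 89.3% at week 0. Both OSCA-40 libraries lay below the other 6, and the OSCA-32 libraries lay on both sides of the week 0 libraries. Relative to the median of the other 9 members, Cd9 was 7.25 and 8.67 times as high with OSCA-40, 13.3 and 19.5 times with OSCA-32, 16.0 and 17.5 times in PBS and 18.0 and 18.0 times at week 0. Here again the OSCA-40 libraries stood lowest, and a single OSCA-32 library exceeded all PBS and week 0 libraries.

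**Figure D3:**
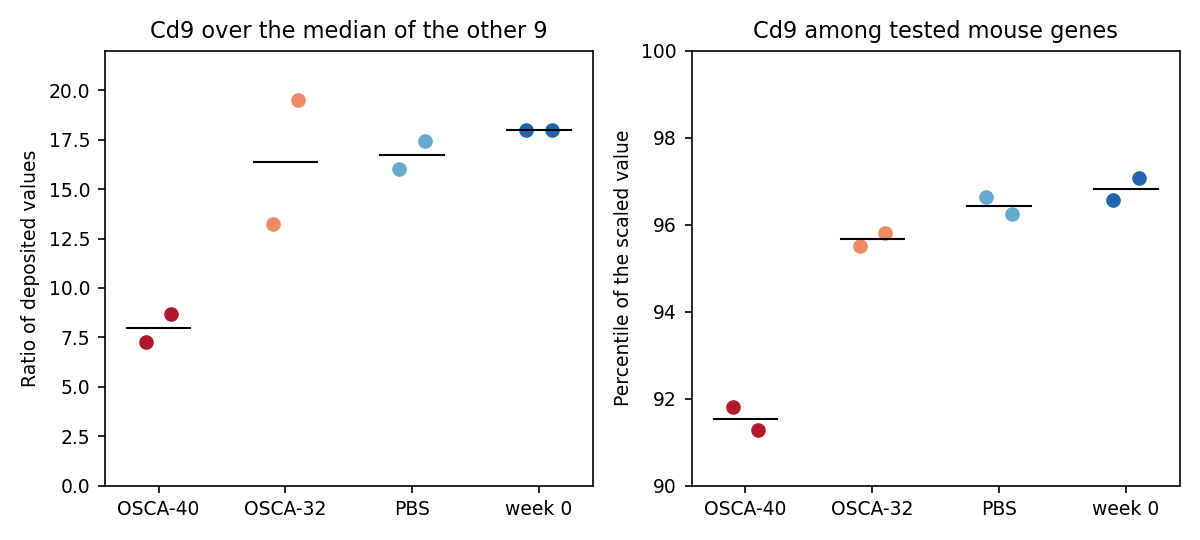
Cd9 relative to other genes in the 8 libraries, with OSCA-40, OSCA-32, PBS and week 0 side by side (points, libraries; bars, group means). Left, the ratio of its deposited value to the median of the other 9 members, which is 7.25 and 8.67 with OSCA-40 and 13.3 or more elsewhere; right, its percentile among tested mouse genes, on an axis that runs from 90 to 100 and not from 0, which is 91.3 and 91.8 with OSCA-40 and 95.5 or more elsewhere.

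The 3 endosomal sorting genes were also low. Tsg101 (chr7:46888949-46919969, minus strand), the ESCRT-I subunit that recognises ubiquitinated cargo, had 2 and 3 with OSCA-40, 10 and 4 with OSCA-32, 10 and 12 in PBS and 7 and 14 at week 0. As deposited, the OSCA-40 libraries were lowest, an OSCA-32 library reached the PBS values and the week 0 libraries enclosed them. After scaling Tsg101 had 5.87 and 9.19 with OSCA-40, 14.5 and 5.64 with OSCA-32 and 9.62 and 11.4 in PBS, so an OSCA-32 library was lowest. The log2 fold change of OSCA-40 against PBS was -0.46 ± 0.51. Pdcd6ip (chr9:113651744-113708259, minus strand), which encodes Alix, had 2 and 2 with OSCA-40, 8 and 6 with OSCA-32, 15 and 11 in PBS and 13 and 15 at week 0. As deposited, both OSCA-40 libraries lay lowest and both OSCA-32 libraries next. After scaling it had 5.87 and 6.12 with OSCA-40, 11.6 and 8.46 with OSCA-32 and 14.4 and 10.4 in PBS, so OSCA-40 stayed lowest while OSCA-32 overlapped PBS, which Cd9 did not. Pdcd6ip passed the filter only through PBS and week 0 libraries, the groups where it is high as deposited, so its fold change and its likeness to Cd9 are given as descriptions. The log2 fold change of OSCA-40 against PBS was -0.93 ± 0.30 (95% interval -1.64 to -0.21), with a limma p of 0.0179 before adjustment and 0.138 after it. Of the members, Pdcd6ip had the profile across the 8 libraries closest to that of Cd9, with a mean absolute difference of 0.171 on the centred log2 scale. The other 7 tested members stood at 0.440 to 0.694. At a value of 2 in OSCA-40, however, a whole-number table resolves little. Sdcbp (chr4:6365650-6408423, plus strand), which encodes syntenin, had 6 and 4 with OSCA-40, 7 and 9 with OSCA-32, 14 and 19 in PBS and 11 and 15 at week 0. The tumour libraries were all below the tumour-free ones as deposited. The share of tested mouse genes that separate in that way was not counted. Both libraries lay below both PBS libraries as deposited for 92.5% of tested mouse genes with OSCA-40 and for 64.8% with OSCA-32. Sdcbp passed the filter only through PBS and week 0 libraries, where it is high as deposited. After scaling its fold change of OSCA-40 against PBS was -0.08 ± 0.30.

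Among the Rab genes, none was called in any comparison. Rab27b (chr18:69979131-70141605, minus strand), which docks endosomes at the cell surface, had 4 and 4 with OSCA-40, 9 and 9 with OSCA-32, 13 and 11 in PBS and 13 and 13 at week 0. The replicates lay close together, and the fold change of OSCA-40 against PBS was 0.06 ± 0.23, which places it near the typical gene. Rab11a (chr9:64715299-64737758, minus strand), of recycling endosomes, had 6 and 6 with OSCA-40, 8 and 10 with OSCA-32, 12 and 8 in PBS and 10 and 13 at week 0. After scaling it had 17.6 and 18.4 with OSCA-40, 11.6 and 14.1 with OSCA-32, 11.5 and 7.59 in PBS and 10.0 and 12.8 at week 0, which places both OSCA-40 libraries highest. The log2 fold change was 0.87 ± 0.28 (95% interval 0.20 to 1.54), with a limma p of 0.0175 before adjustment and 0.136 after it. Rab7 (chr6:87999106-88045270, minus strand), which directs late endosomes to the lysosome, was second to Cd9, at 10 and 8 with OSCA-40, 14 and 19 with OSCA-32, 19 and 25 in PBS and 21 and 23 at week 0. Its fold change of OSCA-40 against PBS was 0.35 ± 0.22 (limma, adjusted p = 0.426).

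Of the 10 members 9 passed the filter, and Cd9 was the only one called, in 2 of the 4 comparisons. Over the 8 other tested members the median log2 fold change of OSCA-40 against PBS was -0.01, with 4 of 8 positive, against -0.04 over all tested mouse genes. For OSCA-32 against PBS the median was -0.23 over the 8 members and -0.00 over all tested mouse genes. For OSCA-40 against OSCA-32 it was 0.05 over the 8 and -0.02 over all, and for PBS against week 0 it was 0.01 over the 8 and 0.00 over all. Single values of the 8 ran from -0.84 (Cd82) to 0.41 (Rab11a) for OSCA-32 against PBS, from -0.64 (Pdcd6ip) to 0.55 (Cd81) for OSCA-40 against OSCA-32 and from -0.25 (Rab11a) to 0.51 (Cd82) for PBS against week 0. As deposited, all 10 members were lower in both OSCA-40 libraries than in both PBS libraries, but 92.5% of tested mouse genes were too. The same held for 8 members in OSCA-40 against OSCA-32 (76.9% of tested mouse genes), for 7 in OSCA-32 against PBS (64.8%) and for 0 in PBS against week 0 (12.6%). After scaling, Cd9, Cd82, Tsg101 and Pdcd6ip were lower in both OSCA-40 libraries than in both PBS libraries (25.6% of tested mouse genes) and Rab11a and Rab7 were higher (23.4%). With OSCA-32, Cd9 and Sdcbp lay below both PBS libraries and Rab27b and Rab11a above them (20.8% of tested mouse genes in each direction). Between the lines, Cd9, Pdcd6ip and Rab27b were lower in both OSCA-40 libraries than in both OSCA-32 libraries (20.4%) and Rab11a was higher (20.1%). In PBS against week 0 Rab27b was lower (19.4%) and Cd81 and Cd82 were higher (19.2%). These counts are 1 to 4 of 9 tested members and are given beside those shares as a description. Apart from Cd9 and Rab7, no tested member reached 10 in an OSCA-40 library, so these members passed the filter through the other groups. The intervals of the other members are wide (-1.66 to 0.75 for Tsg101 in OSCA-40 against PBS), so a p that missed the threshold does not show that they stayed level.

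The remaining 9 members were compared with the typical gene by rank. Among the 21474 mouse protein-coding genes, their mean percentile over the 8 libraries ran from 62.7 for Cd63 to 90.7 for Rab7, with a median of 78.0, and that of Cd9 was 98.6. The median protein-coding gene had a value of 2 and 1 in the OSCA-40 libraries, 3 and 3 in the OSCA-32 libraries and 5 in each PBS and week 0 library. The members other than Cd9 thus stood above the middle of all protein-coding genes, though at low values. Among the tested mouse genes, which exclude the lowest, their median percentile was 37.4. In the PBS libraries the order of means was Cd9, Rab7, Cd82, Sdcbp, Pdcd6ip, Rab27b, Tsg101, Cd81, Rab11a and Cd63. The step below Cd9 and the step above Cd63 exceeded the spread of the libraries, and no other neighbours in that order were separated by more than their SD. With OSCA-40 the order was Cd9, Rab7, Rab11a, Sdcbp, then Cd81 and Rab27b with equal means, Cd63 and Cd82 with equal means, Tsg101 and Pdcd6ip.

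**Figure D4:**
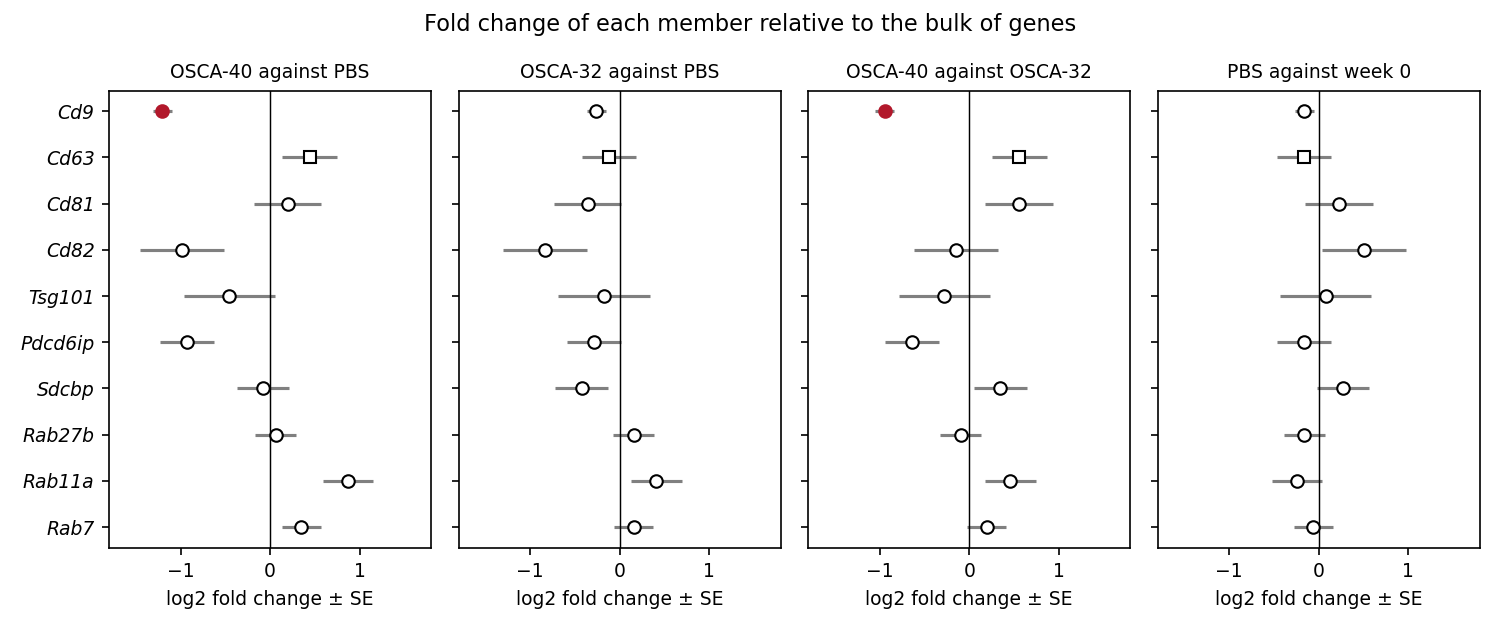
Log2 fold change ± SE (limma, 8 libraries) of each member in the 4 comparisons, relative to the bulk of genes; filled red circles passed an adjusted p of 0.05, and the square for Cd63 comes from a fit with a minimum of 5. Cd9 is filled at -1.20 for OSCA-40 against PBS and at -0.94 for OSCA-40 against OSCA-32, and the other members scatter on both sides of 0.

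The pathway around the members was described with 6 lists that together hold 142 genes, of which 138 were in the table and 49 were tested. In OSCA-40 against PBS 0 of the 49 were called higher and 3 were called lower (6.12%, beside 5.32% of tested mouse genes called in either direction), and 8 had a limma p under 0.05 before adjustment. The median log2 fold change was -0.16. The called genes were Snf8, Vamp3 and Exph5. In the other comparisons 0 of the 49 were called by limma. Before adjustment 2 had a limma p under 0.05 in OSCA-32 against PBS, 4 in OSCA-40 against OSCA-32 and 0 in PBS against week 0. The share of all tested mouse genes with such an unadjusted p was not counted. The unadjusted counts here and in the lists below are therefore a description only.

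Snf8, a subunit of ESCRT-II, had the highest value of the 49. It had 80 and 53 with OSCA-40, 205 and 263 with OSCA-32, 475 and 423 in PBS and 418 and 427 at week 0. The groups stood in the order of Cd9, with PBS and week 0 overlapping. Its log2 fold change of OSCA-40 against PBS was -1.13 ± 0.18 (SE, limma, adjusted p = 0.0113). Vamp3, a vesicle fusion protein of recycling endosomes, had 22 and 16 with OSCA-40, 55 and 67 with OSCA-32, 141 and 131 in PBS and 126 and 91 at week 0. Its log2 fold change was -1.19 ± 0.20 (SE, limma, adjusted p = 0.0135). Exph5, an effector of Rab27 proteins, had 10 and 9 with OSCA-40, 27 and 30 with OSCA-32, 49 and 46 in PBS and 41 and 41 at week 0, with a fold change of -0.66 ± 0.13 (SE, limma, adjusted p = 0.0260). All 3 calls were lost without either PBS library, where 0 of the 49 were called, and without the variance trend. These genes carry recurring 31-mers as Cd9 does, 122 in Snf8, 143 in Vamp3 and 178 in Exph5. Of the 162 31-mers of the Cd9 stretch, counted on its own strand only, Snf8 holds 24, Vamp3 holds 11 and Exph5 holds 0. Of genes not called in OSCA-40 against PBS, Unc13d holds 20, the phospholipase gene Pld1 holds 16 and the member Sdcbp holds 9, while the other 7 tested members hold 0. Unc13d, a priming factor of granule release, had 74 and 44 with OSCA-40, 96 and 96 with OSCA-32, 122 and 144 in PBS and 145 and 123 at week 0. Its log2 fold change was 0.43 ± 0.22 for OSCA-40 against PBS.

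By list, 9 other tetraspanins were tested and 0 were called by limma in OSCA-40 against PBS (1 with p under 0.05 before adjustment, median -0.21). Tspan18, an endothelial tetraspanin, had the highest value among them, with 32 and 28 with OSCA-40, 77 and 79 with OSCA-32, 119 and 122 in PBS and 112 and 122 at week 0. Its replicates lay close together and its log2 fold change was -0.36 ± 0.09 (limma, adjusted p = 0.0696). Tspan12, a partner of Wnt receptors in retinal vessels, had a fold change of 0.08 ± 0.41. Of 7 tested tetraspanin partners 0 were called (1 before adjustment, median 0.11). The laminin receptor subunit Itga6 had 31 and 38 with OSCA-40, 59 and 72 with OSCA-32, 116 and 125 in PBS and 106 and 114 at week 0, a fold change of -0.16 ± 0.14. Itga4, the leukocyte integrin subunit, had 0.11 ± 0.11.

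The other lists held few genes that passed the filter. Of 7 tested ESCRT genes Snf8 was the only one called, and Vps4b, the ATPase that disassembles ESCRT filaments, had a log2 fold change of 0.39 ± 0.31 for OSCA-40 against PBS. Of 5 tested genes of the syntenin and Alix axis 0 were called (1 before adjustment, median -0.23), and the phospholipases Pld1 and Pld2 had -0.31 ± 0.12 and -0.23 ± 0.21. Of 15 other Rab genes and effectors Exph5 was the only one called (3 before adjustment, median -0.40), and the Rab27a effector Mlph had -0.04 ± 0.11. Of 6 genes of membrane fusion and lipids Vamp3 was the only one called (median 0.34), and its fusion partner Snap23 had 0.05 ± 0.15.

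**Figure D5:**
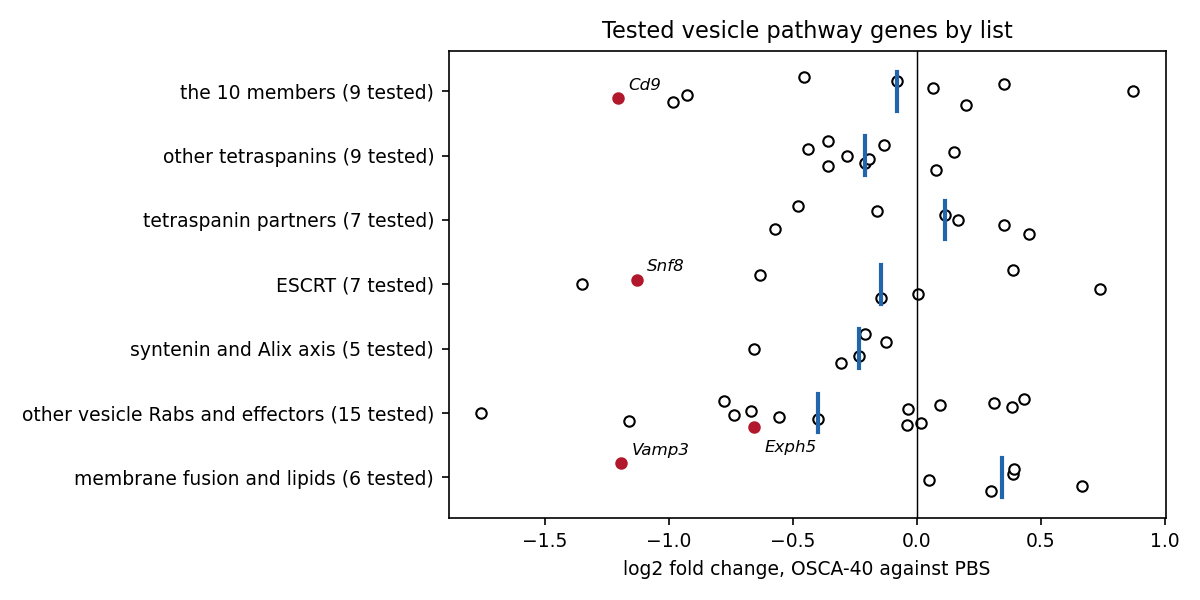
Log2 fold change of OSCA-40 against PBS for the tested members and the tested genes of the 6 pathway lists; each circle is a gene, filled red where limma's adjusted p was under 0.05, and each blue bar is the median of a list. Cd9, Snf8, Vamp3 and Exph5 are filled, and medians run from -0.40 to 0.34.

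The genes most like Cd9 were sought among 757 tested mouse genes with an established symbol and a mean scaled value of at least 50, by the mean absolute difference of centred log2 profiles over the 8 libraries. The closest were Sesn3 (0.107), Myo7a (0.114), Snf8 (0.129), Ythdc2 (0.137) and Kif24 (0.138). Sesn3, a stress-induced sestrin, had 14 and 15 with OSCA-40, 56 and 56 with OSCA-32, 110 and 107 in PBS and 107 and 102 at week 0. Myo7a, a myosin of sensory hair cells, had 586 and 665 with OSCA-40, 2552 and 2449 with OSCA-32, 4533 and 4669 in PBS and 4434 and 4517 at week 0. In both the OSCA-40 libraries were lowest, the OSCA-32 libraries intermediate, and PBS and week 0 together. Kif24, a kinesin of centrioles, had 41 and 35 with OSCA-40, 115 and 131 with OSCA-32, 248 and 236 in PBS and 223 and 220 at week 0. Ythdc2, an RNA helicase of meiosis, had 15 and 21 with OSCA-40, 65 and 60 with OSCA-32, 132 and 116 in PBS and 112 and 146 at week 0. Its groups stood in the same order. These genes were picked for their likeness to Cd9, so the shared order follows from that choice. As deposited, 92.5% of tested mouse genes were also lower in both OSCA-40 libraries than in both PBS libraries. Recurring 31-mers, counted on both strands, numbered 62 in Sesn3, 51 in Myo7a, 79 in Ythdc2 and 342 in Kif24. On the strand of the Cd9 stretch, none of these closest genes apart from Snf8 shares a 31-mer with it. The opposite strand was not searched.

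Markers of cells that could add RNA to serum were summed beside these results. Platelets carry Cd9 protein, and the 14 platelet markers summed to 196 to 223 with OSCA-40, 165 to 193 with OSCA-32, 141 to 166 in PBS and 124 to 135 at week 0, with Nrgn at 0 throughout. Of their 4 tested genes Ppbp, Pf4 and Tmsb4x were called higher in OSCA-40 against PBS by limma, beside 2.95% of tested mouse genes. The other tested marker, Itga2b, had a log2 fold change of 0.35 ± 0.31 and was not called. With OSCA-40, Tmsb4x alone had 95 and 88 and Pf4 had 85 and 69. The 10 white cell markers summed to 15 to 21 with OSCA-40, 33 to 42 with OSCA-32, 72 to 76 in PBS and 57 to 78 at week 0, and 0 of 3 tested were called (0 with p under 0.05 before adjustment). The 8 endothelial markers summed to 68 to 73 with OSCA-40, 119 to 132 with OSCA-32, 154 to 176 in PBS and 161 to 182 at week 0. White cell and endothelial sums were lower as deposited in OSCA-40 than in PBS, as was the typical mouse gene. The 11 erythroid markers summed to 269 to 296 with OSCA-40, 285 to 302 with OSCA-32, 348 to 380 in PBS and 478 to 521 at week 0. The 8 hepatocyte markers summed to 50 to 58 with OSCA-40, 62 to 73 with OSCA-32, 56 to 77 in PBS and 60 to 63 at week 0. None of these 4 lists had a marker at 0 in all libraries. In OSCA-40 against PBS, limma called higher 1 of 7 tested erythroid markers (Hba-a2), 1 of 4 endothelial (Pecam1) and 2 of 3 hepatocyte markers (Alb and Trf). Of all tested mouse genes 2.95% were called higher there. The 4 endothelial log2 fold changes ran from -0.96 to 1.29, with a median of 0.01. Hba-a2 was also called lower in PBS against week 0 (-0.76, limma adjusted p = 0.0177). The part of these cells in the Cd9 values was not tested, and fewer vesicles of a kind and less RNA per vesicle cannot be told apart in such libraries.

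Overlapping annotation touches some members. Exons of Cd9 overlap those of Gm26728 on the opposite strand, Cd81 those of R74862, Rab7 those of Gm5577 and Sdcbp those of Nsmaf, also on opposite strands, and Rab11a those of Gm47308 on its own strand. Whether reads were assigned by strand is not given in the sources used here, so values of these pairs may be mixed.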

How the data were processed

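The deposited table gives a whole-number score for each gene in each library, with mouse and canine genes listed side by side. Scores sum to just under 1000000 per library, did not rise with transcript length and keep no depth, so no counting interval or floor is given. Its authors named the values counts, but they are not treated as such. Tools named by the submitters' processing notes are kallisto 0.43.0, Trimmomatic 0.33.0 and FastQC 0.11.5, with the builds CanFam3.1 and GRCm38.p5. Per the labels' protocols, vesicles were enriched by ExoQuick, their RNA was isolated with the SeraMir kit and a stranded SMARTer kit for low input was used. The sources used here do not give the index, annotation release or filters.

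Genes reaching 10 in 2 or more libraries were tested (7655 mouse, 217 canine). Scaling used log ratios to the first week 0 library, averaged after trimming 30% of ratios and 5% of levels at each end. limma 3.58.1 (R 4.3.3) was fitted to log2(scaled value + 1) with a mean for each of the 4 groups, 4 residual degrees of freedom and a variance trend; p-values were adjusted by Benjamini-Hochberg over 7872 genes. This scale understates the change of low genes. Cd9 was also compared by exact permutation (SciPy 1.17.1). Replicate numbers did not pair libraries across groups. Symbols and 31-mers come from GENCODE mouse release 21, in which 31171 of the 31300 mouse identifiers have a symbol. Recurring 31-mers were counted on both strands, and those in common with the Cd9 stretch on its own strand only.

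Named genes are all members, pathway genes called in any comparison, the 2 highest of each pathway list, and the 5 genes most like Cd9 among those with a mean of at least 50. Members, lists and rules were chosen with earlier results of these data known. Tspan13, Vps28, Chmp1b, Vamp7 and Ahsp were not analysed here. Alternatives were other scalings, filters, pseudocounts and variance models, a replicate block, leaving out each library, and, chosen after seeing the data, 0.5 added to values above 0.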

Additional observations from a re-analysis of the deposited data

Results flagged for a closer look

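Cd9 differed between the cell lines under the same contrast. It had 29 and 26 with OSCA-40 and 106 and 117 with OSCA-32, and after scaling 85.1 and 79.6 with OSCA-40 and 154 and 165 with OSCA-32. The difference of the effects against PBS, which is OSCA-40 against OSCA-32, was -0.94 on the log2 scale (limma, Benjamini-Hochberg adjusted p = 0.00599). That call was lost without the second OSCA-32 library, without the variance trend and with only the groups compared in the fit. Both OSCA-40 libraries lay below both OSCA-32 libraries, which held for 76.9% of tested mouse genes as deposited and for 20.4% after scaling. The canine share also differed between these libraries, at 68.4% and 70.7% with OSCA-40 and 44.7% and 43.3% with OSCA-32, and its part in the difference was not tested.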

How the results depend on the processing

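The alternatives gave 786 fold changes. They cover the tested members in 4 comparisons and, in OSCA-40 against PBS only, the called pathway genes Snf8, Vamp3 and Exph5. Of these, 756 kept their direction and side of the threshold, 19 lost a call, 7 gained one and 4 reversed. A change of sign between values called in neither fit counts as kept. Most were not called in the main fit, so the 756 say little about how firm the calls are. All 19 lost calls were of Cd9 in OSCA-40 against OSCA-32 or of those pathway genes. Scaling by library totals alone leaves the canine share in the values and called 1353 genes for OSCA-32 against PBS (1 member, 10 pathway genes), 6726 for OSCA-40 against PBS (8 members, 45 pathway genes) and 4638 for OSCA-40 against OSCA-32 (4 members, 33 pathway genes), where the scaled fit called 85, 538 and 200 genes. Under it Cd81 (-1.24), Rab27b (-1.39) and Rab7 (-1.21) reversed in OSCA-40 against PBS, and Rab7 (-0.81) in OSCA-40 against OSCA-32. Cd9 had -0.85 (limma, adjusted p = 0.00671) in OSCA-32 against PBS.

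For OSCA-32 against PBS the genes called numbered 166 with no filter, 131 at a mean of at least 50 and 45 with only the groups compared. In OSCA-40 against PBS they numbered 2434 with no filter, 303 without the variance trend and 301 with only the groups compared; pathway genes called were 6 with no filter, 0 without the trend and 1 with only the groups compared, against 3. OSCA-40 against OSCA-32 gave 1728 genes with no filter, 110 without the trend and 74 with only the groups compared. Its members called were then 0 without the trend and 0 with only the groups compared, against 1 (Cd9), and its pathway genes 3 by mouse gene totals, 3 with no filter and 2 at a mean of at least 50, against 0. PBS against week 0, with 15 genes, gave 2 with no filter, 8 at a minimum of 5, 24 at a mean of at least 50, 5 without the trend, 2 with only the groups compared and 8 without mitochondrial and haemoglobin genes. The median percentile of the other 9 members was 37.4 among tested mouse genes, against 78.0 among protein-coding genes. The cause of these changes was not tested, beyond the smaller or larger number of genes each filter leaves.

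Leaving out each library in turn gave 36 to 89 genes for OSCA-32 against PBS, 265 to 553 for OSCA-40 against PBS (0 to 3 pathway genes), 63 to 182 for OSCA-40 against OSCA-32 (0 to 1 members, 0 to 1 pathway genes) and 2 to 7 for PBS against week 0. Cd9 kept its call in OSCA-40 against PBS in all 8 (-1.27 to -1.14, highest limma adjusted p = 0.0111). The tumour against tumour-free difference of Cd9 was -0.99 to -0.64, with exact permutation p = 0.0571, the smallest that 4 against 3 libraries allow. Replicate numbers are shared between groups, but deviations of same-numbered libraries correlated by only -0.0591 to 0.00234. With the replicate block, PBS against week 0 gave 5 genes, and Exph5 lost its call in OSCA-40 against PBS (limma adjusted p = 0.0544), leaving 2 pathway genes. Values of 2 to 15, where most members lie, are coarse whole numbers, and their depth is unknown.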
